A study of Homo sapiens with 5 samples.

Results

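The 10 genes described here encode AP-1 transcription factors and other products of the immediate early response, and were picked by name from a table of 17297 genes when earlier results of these data were known. They are the FOS family genes FOS, FOSL1 and FOSL2, the JUN family genes JUN, JUNB and JUND, the zinc finger factor gene EGR1, the immediate early response genes IER2 and IER3, and MYC. Their ribosome-protected mRNA fragments (footprints) were counted in 5 libraries of HCT116, an established cell line from a human colorectal carcinoma. Genotype Wt (WT) had 2 libraries, and the MUT group had 3 libraries of genotype eIF6-N106S. In MUT cells both copies of the gene for eIF6, a factor that binds the large ribosomal subunit and keeps it from joining the small one, were edited with CRISPR/Cas9 to carry the N106S change. No drug or stimulus was named for either group, and the medium of both contained serum. The labels speak of mutant clones without saying how many clones the 3 libraries came from, or whether libraries of a group were separate cultures. Each p-value below thus reflects no more than variation among these 5 libraries, possibly technical. The mutation and any other difference between edited and unedited cells cannot be told apart.

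AP-1 is a pair of leucine zipper proteins that binds DNA at TGANTCA. A JUN protein can pair with another JUN protein or with a FOS protein, while FOS proteins need a JUN partner. Immediate early genes are switched on within minutes of a growth factor or stress signal without new protein synthesis, through ERK, JNK and the serum response factor SRF, and their mRNAs and proteins are short-lived. FOSL1 and FOSL2 usually follow FOS more slowly and last longer, and in epithelial tumours FOSL1 is known for its part in migration and invasion.

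Signals can reach such genes through DNA elements near the transcription start or further away. RefSeq promoters (GRCh38.p14) were found for 7 of the 10 genes, and 4 are printed for their 250 bases before the start, 5′ to 3′ on the gene's strand. They are FOS (chr14:75278578-75278827, plus strand), FOSL2 (chr2:28392608-28392857, plus), JUN (chr1:58784048-58784297, minus) and EGR1 (chr5:138465229-138465478, plus). Capitals mark matches on either strand to TGACGT, the core of the cyclic AMP response element, to TGACATCA, an AP-1-like element, or to the CArG box bound by SRF.
FOS: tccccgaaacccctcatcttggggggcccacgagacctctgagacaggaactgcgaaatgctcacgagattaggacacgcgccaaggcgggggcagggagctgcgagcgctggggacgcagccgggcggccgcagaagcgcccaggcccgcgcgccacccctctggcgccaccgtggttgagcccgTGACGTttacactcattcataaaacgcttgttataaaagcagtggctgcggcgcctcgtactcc
FOSL2: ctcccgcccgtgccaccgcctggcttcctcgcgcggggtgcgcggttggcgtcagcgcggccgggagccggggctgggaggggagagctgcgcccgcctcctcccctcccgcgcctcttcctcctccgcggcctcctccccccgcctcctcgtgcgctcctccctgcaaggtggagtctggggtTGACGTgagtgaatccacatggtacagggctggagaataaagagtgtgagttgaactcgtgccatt
JUN: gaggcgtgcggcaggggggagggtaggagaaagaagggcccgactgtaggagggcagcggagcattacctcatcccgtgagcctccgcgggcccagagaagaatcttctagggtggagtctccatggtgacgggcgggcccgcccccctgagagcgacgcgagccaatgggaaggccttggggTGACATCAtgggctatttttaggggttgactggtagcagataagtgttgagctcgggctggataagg
EGR1: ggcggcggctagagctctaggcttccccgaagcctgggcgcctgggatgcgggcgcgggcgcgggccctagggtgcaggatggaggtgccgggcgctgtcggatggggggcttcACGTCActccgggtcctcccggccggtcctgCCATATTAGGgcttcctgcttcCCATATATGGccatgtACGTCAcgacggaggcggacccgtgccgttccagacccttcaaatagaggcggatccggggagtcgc

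In each of the 4 printed promoters a match lay at nearly the same distance from the start, though motif and strand differed. How often matches lie at that distance over all windows was not counted. JUND, the only other window with a match, is not printed. It held TGACGT or its reverse complement beginning 87, 198 and 200 bases before the start, away from that distance. The matches at 198 and 200 overlap as the palindrome TGACGTCA. No match to any of these motifs was found in the windows of JUNB and IER2. TGACGT began 64 bases before the start in FOS and 66 in FOSL2, and TGACATCA began 67 before it in JUN. In EGR1 the reverse complement of TGACGT began 67 and also 136 bases before the start. Within the 250 bases searched, CArG boxes were found in EGR1, which held 2, and in none of the other 6 windows, and elements further upstream were not searched. Of all 35116 promoter windows of that length, 7.1% held TGACGT, 2.37% TGACATCA and 1.16% a CArG box. The AP-1 site itself, TGANTCA, was in 0 of the 7 windows and in 6.57% of all windows. In EGR1, the only printed promoter with both, the CArG boxes did not share bases with TGACGT. These matches describe letters only. Factor binding was not measured.

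FOSL1 and FOSL2 rose in MUT, and none of the other 8 genes passed the test in either direction. At an unadjusted p under 0.05 edgeR gave JUN as higher and MYC as lower besides. That looser cutoff was met by 4295 of the 11991 genes tested, so these additions do not stand out from the background. FOSL2 was 1.7-fold and FOSL1 1.44-fold higher. MYC lay lower in every MUT library than in either WT library but missed the threshold. Every other uncalled gene differed more among libraries of 1 group than between the group means. Among MUT libraries FOS and EGR1 had the widest spread of the 10 genes, 2.89-fold and 1.94-fold. The test was edgeR's quasi-likelihood F test over all 11991 genes with enough counts, with Benjamini-Hochberg adjustment and a threshold of 0.05. All 10 genes were among those tested. Of all genes tested 22.9% were called, 10.0% as higher and 12.9% as lower, so 2 of 10 is near the background. The median log2 fold change (MUT over WT) was -0.01 over the 10 genes and 0.00 over all genes. Because libraries were scaled to each other, a shift shared by every gene is not visible in these values.

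**Figure D1:**
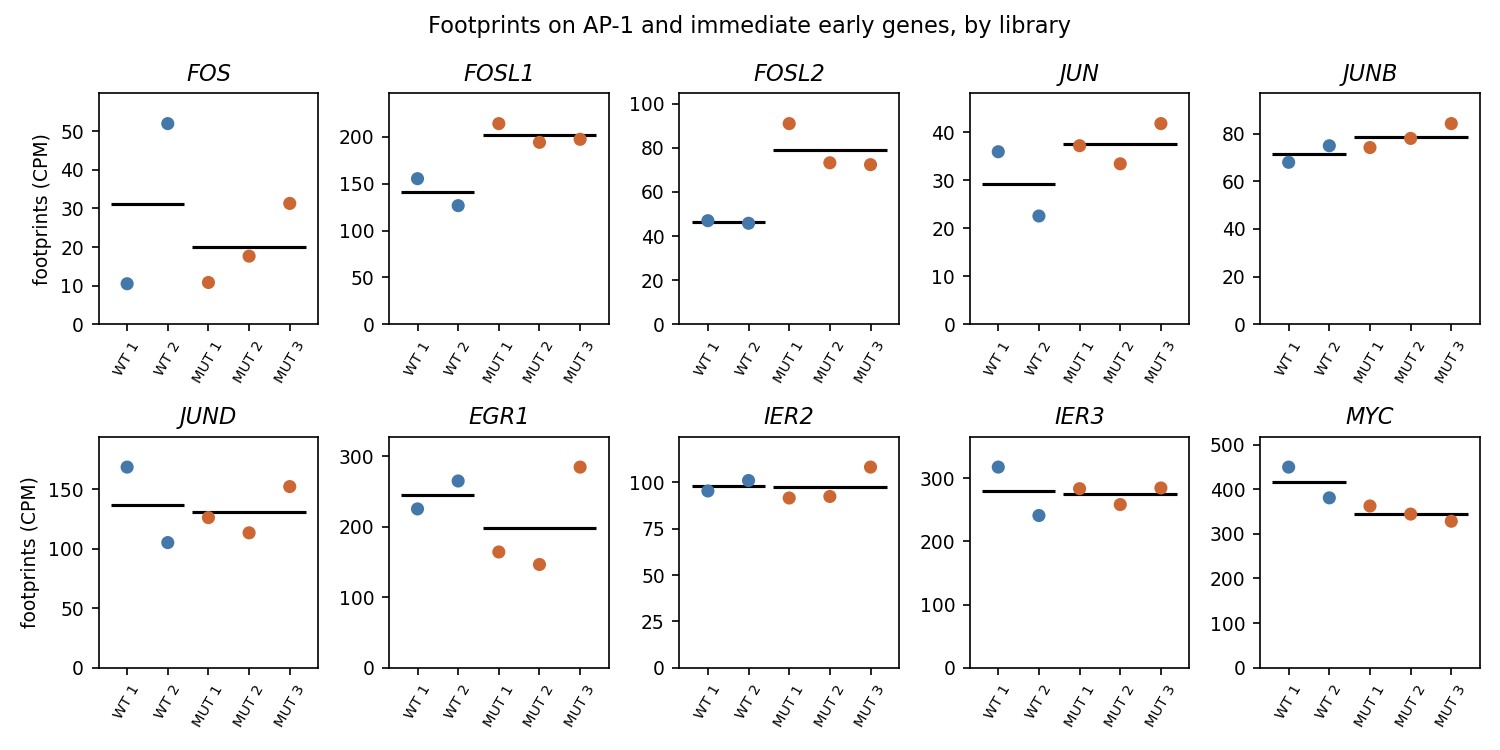
Footprints on each of the 10 genes in CPM (counts scaled to a common library size, vertical axis, each panel from 0) in each library (horizontal axis; WT blue, MUT orange). Points are libraries and bars are group means. FOSL1 and FOSL2 had all 3 MUT points above both WT points, MYC had them below, and FOS and EGR1 were widely spread within a group.

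FOSL2 (Fra-2, a FOS family member) has gene ID 2355 and lies on chromosome 2 from 28392858 to 28417317 (GRCh38.p14, as for all positions here). It had 46.9 and 45.8 CPM in WT replicates 1 and 2 and 91.0, 73.2 and 72.4 CPM in MUT replicates 1, 2 and 3. The WT values lay close together and every MUT value was above both. Group means were 46.4 ± 0.828 CPM (SD, n = 2) and 78.8 ± 10.5 CPM (SD, n = 3). This is a log2 fold change of 0.76 (SE 0.137, edgeR adjusted p 0.000358), and FOSL2 passed in all 13 alternative fits, with log2 fold changes from 0.65 to 0.83.

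FOSL1 (Fra-1, gene ID 8061, chromosome 11, 65892049 to 65900545) had 155 and 127 CPM in the WT libraries and 214, 194 and 197 CPM in the MUT libraries. Its groups did not overlap either, with the gap between the lowest MUT and the highest WT library wider than the gap between the WT libraries. The means were 141 ± 20.4 CPM (SD, n = 2) and 202 ± 10.7 CPM (SD, n = 3). MUT was higher by 0.53 on the log2 scale (SE 0.104, edgeR adjusted p 0.000849). FOSL1 passed in 12 of 13 alternative fits and not without WT replicate 2, the lower of the WT libraries, where it was 0.38 (adjusted p 0.0553).

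FOS (gene ID 2353, chromosome 14, 75278828 to 75282230) is the founding member of the family. It had 10.5 CPM in WT replicate 1 and 51.99 CPM in WT replicate 2, and 10.8, 17.6 and 31.3 CPM in the MUT libraries. All 3 MUT libraries lay between the WT libraries. Behind the WT values stood 21 and 159 raw counts, whose exact 95% Poisson intervals, which cover counting error only, were 13.0 to 32.1 and 135 to 186. WT replicate 2 was thus 4.96-fold above WT replicate 1, a ratio that 0.133% of tested genes exceeded. The highest MUT library was 2.89-fold above the lowest, a spread that 1.31% of tested genes exceeded. The log2 fold change of -0.73 (SE 0.356, edgeR adjusted p 0.14) had a 95% interval from -1.46 to 0.00. Its sign depended on 1 library: leaving out WT replicate 2 gave 0.96 (adjusted p 0.259), leaving out WT replicate 1 gave -1.36 (adjusted p 0.0104) and leaving out MUT replicate 3 gave -1.23 (adjusted p 0.0303).

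Within the FOS family the make-up of the counts moved with FOS. FOS held 4.93% and 23.2% of the family's counts in the WT libraries and 3.42%, 6.19% and 10.4% in the MUT libraries. FOSL1 held 73.0% and 56.4% in WT and 67.8%, 68.1% and 65.6% in MUT, so the MUT values lay between the WT values. The share of FOSL2 was 22.1% and 20.4% in WT and 28.8%, 25.7% and 24.0% in MUT, and it alone of the 3 did not overlap between groups. These shares are not corrected for gene length, so they compare libraries and not the levels of the 3 genes.

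JUN (gene ID 3725, chromosome 1, 58780791 to 58784047), the main partner of FOS proteins, had 36.0 and 22.6 CPM in the WT libraries and 37.2, 33.4 and 41.8 CPM in the MUT libraries. WT replicate 2 stood below the rest, and WT replicate 1 lay among the MUT values. Its log2 fold change of 0.41 (95% interval 0.02 to 0.79) missed the threshold (edgeR adjusted p 0.117). Leaving out WT replicate 1 gave 0.73 (adjusted p 0.0336), and leaving out WT replicate 2 gave 0.07 (adjusted p 0.876).

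JUNB (gene ID 3726, chromosome 19, 12791486 to 12793315), which pairs like JUN but activates many sites more weakly, had 67.9 and 74.9 CPM in WT and 74.1, 77.9 and 84.2 CPM in MUT, and the groups overlapped. For JUNB the log2 fold change was 0.14, with a 95% interval from -0.11 to 0.38 and an edgeR adjusted p of 0.434. In RefSeq, JUNB overlaps HOOK2, which has its own row in the table; use of strand in the counting was not given in the sources used here.

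JUND (gene ID 3727, chromosome 19, 18279694 to 18281622), the JUN family member that is expressed without stimulation in most cells, had 169 and 105 CPM in WT and 126, 113 and 152 CPM in MUT. All 3 MUT libraries lay between the WT libraries. JUND had a log2 fold change of -0.04 (95% interval -0.33 to 0.26, edgeR adjusted p 0.885), which became 0.31 if WT replicate 1 was left out and -0.36 if WT replicate 2 was. Shares of the JUN family's counts were 13.2% and 11.1% for JUN in WT against 15.7%, 14.9% and 15.0% in MUT, without overlap. Those of JUNB and JUND overlapped between groups, with JUND at 61.9% and 51.9% in WT and 53.1%, 50.5% and 54.7% in MUT.

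**Figure D2:**
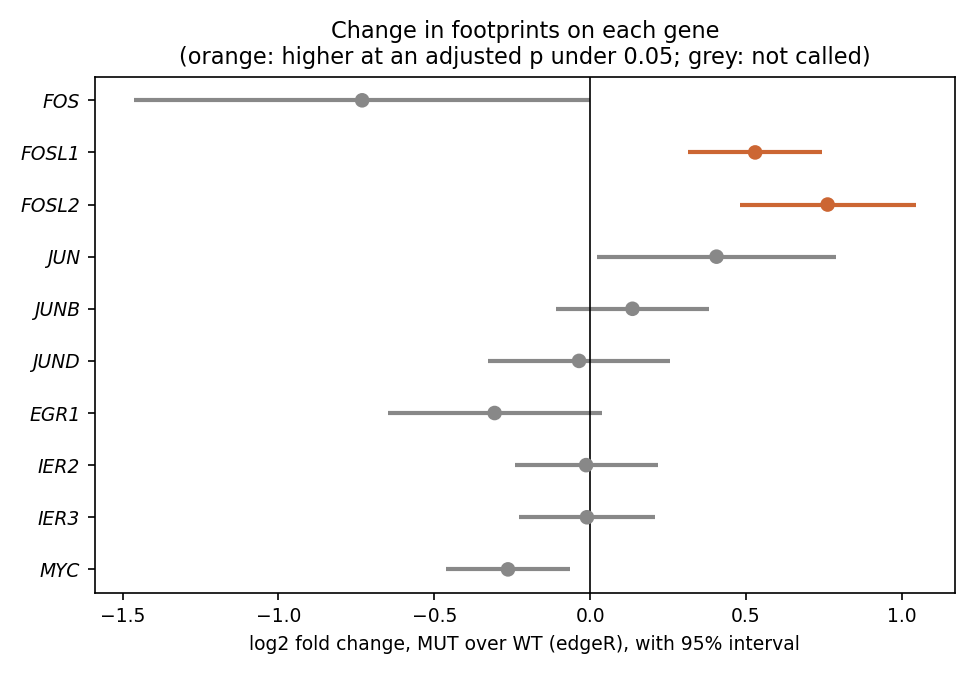
The log2 fold change of each gene (MUT over WT, horizontal axis) from edgeR as a point, with its 95% interval as a line. Orange marks FOSL1 and FOSL2, the only genes of the 10 called, at 0.53 and 0.76; grey marks the rest, with FOS having the widest interval.

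EGR1 (gene ID 1958, chromosome 5, 138465479 to 138469303) encodes a zinc finger factor induced by ERK signals. It had 225 and 265 CPM in the WT libraries and 164, 146 and 285 CPM in the MUT libraries. MUT replicates 1 and 2 lay below both WT libraries, whereas MUT replicate 3 lay above them, and the 1.94-fold spread among MUT libraries was exceeded by 4.9% of tested genes. Its log2 fold change of -0.31 (95% interval -0.65 to 0.04) missed the threshold (edgeR adjusted p 0.191). Without MUT replicate 3 it was -0.67 (adjusted p 0.000314). FOS too was highest among MUT libraries in MUT replicate 3 and highest among WT libraries in WT replicate 2.

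IER2 (gene ID 9592, chromosome 19, 13150411 to 13154911), a nuclear protein of the early response, had 95.4 and 101 CPM in WT and 91.6, 92.4 and 108 CPM in MUT, with the groups overlapping. Its log2 fold change was -0.01 (95% interval -0.24 to 0.22, edgeR adjusted p 0.951), which as a ratio of MUT to WT is an interval from 0.845 to 1.16. IER3 (gene ID 8870, chromosome 6, 30743199 to 30744547), a stress-inducible regulator of cell survival, had 318 and 241 CPM in WT and 283, 258 and 285 CPM in MUT. Every MUT value lay between the WT values, and the log2 fold change was -0.01 (95% interval -0.23 to 0.21, edgeR adjusted p 0.959).

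MYC (gene ID 4609), whose protein pairs with MAX to drive growth and ribosome synthesis genes, had 449 and 381 CPM in WT and 362, 344 and 328 CPM in MUT. All MUT libraries lay below both WT libraries, by a margin smaller than the gap between the WT libraries. The means were 415 ± 48.7 CPM (SD, n = 2) and 345 ± 17.1 CPM (SD, n = 3). MYC had a log2 fold change of -0.26 (SE 0.0973, 95% interval -0.46 to -0.06), and edgeR's adjusted p of 0.0516 missed the threshold. Over the alternative fits the adjusted p ran from 0.0288 (without WT replicate 2) to 0.343, and limma-voom gave 0.0452. Groups without overlap were found for 2 of the 10 genes on the higher side and 1 on the lower, where 25.4% and 25.3% of all tested genes had them.

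**Figure D3:**
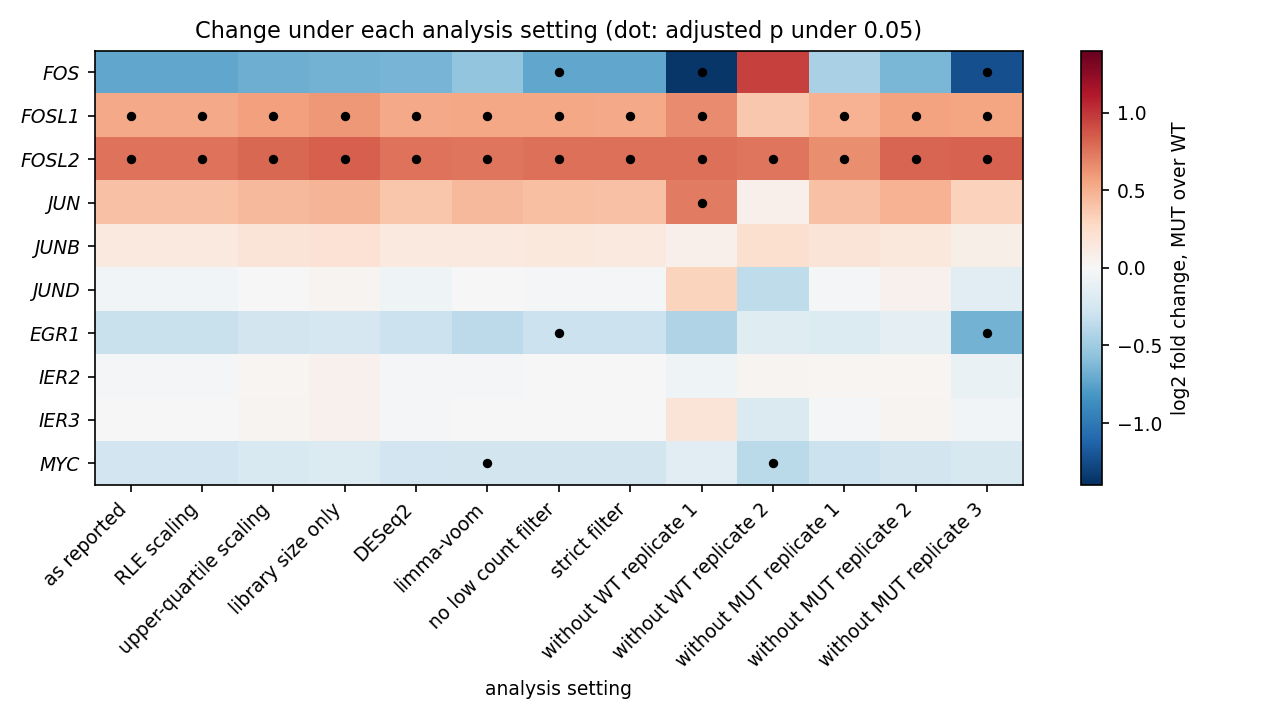
Log2 fold change (MUT over WT, colour) of each gene (rows) under each analysis setting except the replicate block (columns). A dot marks an adjusted p under 0.05. FOSL2 has a dot in every column and FOSL1 in all but the one without WT replicate 2; the colour of FOS changes from blue to red in that column, at 0.96.

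Among the genes whose pattern over the 5 libraries was nearest to that of FOSL2, the gene of the 10 with the lowest p, were PCBP4, an RNA-binding protein, and ARHGEF28. PCBP4 had 33.0 and 31.1 CPM in WT and 57.9, 45.6 and 50.3 CPM in MUT. Likeness was the Euclidean distance between log2 CPM values centred on each gene's mean, over 10274 genes averaging 10 CPM or more, and it was 0.16 for both. With 5 libraries in 2 groups this distance mostly reflects the difference between the groups.

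Genes upstream were mixed. Calls made up 28.6% of the ERK arm and 27.8% of the JNK arm, near the 22.9% of all tested genes. In the arm from receptors over RAS and ERK to SRF, 6 of 28 genes rose and 2 fell, with a median log2 fold change of 0.08. HRAS rose 1.98-fold, from 23.0 and 19.9 CPM in WT to 42.6, 35.3 and 48.2 CPM in MUT, and the kinase gene ARAF rose 1.55-fold. ELK4, a partner of SRF at serum response elements, fell with a log2 fold change of -0.39. Values of SRF, named after they were seen, overlapped between groups (log2 fold change 0.10, 95% interval -0.19 to 0.40). In this arm 1 gene rose without WT replicate 2, 3 rose without WT replicate 1, and 10 rose with library size only; 1 fell without WT replicate 1 or MUT replicate 1. ARAF lost its call without WT replicate 2. In the JNK arm, whose kinases phosphorylate JUN, 4 of 18 rose and 1 fell, with a median of 0.07. The scaffold genes MAPK8IP2 and MAPK8IP1 rose 1.97-fold and 1.62-fold and the kinase gene MAP2K7 1.35-fold. TRAF2 rose and MAP3K7 fell, both named after their values were seen. None of these 5 calls held in every alternative fit, and DESeq2 called 0 genes of this arm. Without WT replicate 2 edgeR called 0 rises there, without WT replicate 1 it called 2, and without MUT replicate 1 or MUT replicate 2 it called 1.

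Other genes of AP-1 type included ATF3, an early stress factor, which went from 31.0 and 28.8 CPM in WT to 43.9, 51.9 and 53.6 CPM in MUT. That is 1.68-fold higher (edgeR adjusted p 0.00138), and ATF3 passed in all 13 alternative fits. BATF3, a leucine zipper protein that pairs with JUN, rose 2.27-fold from 5.19 ± 0.983 CPM (SD, n = 2) to 12.2 ± 2.12 CPM (SD, n = 3), a call lost without WT replicate 1, WT replicate 2 or MUT replicate 1. ATF2, which also pairs with JUN, fell 1.26-fold, a call lost without WT replicate 1 or MUT replicate 1, with library size only and with DESeq2. These were the 2 rises and the 1 fall among 12 genes tested of 15 listed, whose median was 0.41. Calls thus made up 25%, against 22.9% of all tested genes. All MUT libraries lay above all WT libraries for 7 of the 12 and below for 2. Over all tested genes 25.4% lay above and 25.3% below in this way.

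Genes listed as AP-1 targets had a median of 0.38, with 7 of 17 tested higher and 0 lower. Over all tested genes 10.0% were higher and 12.9% lower. Of 29 listed, 8 in the table had too few counts to be tested, among them the matrix metalloproteinases MMP1, MMP7, MMP9 and MMP10. Lower genes numbered 0 in edgeR also at an unadjusted p under 0.05, and 0 in DESeq2 and limma-voom, and DESeq2 called 3 higher. AXL, a receptor kinase and FOSL1 target, went from 35.0 and 28.1 CPM in WT to 60.4, 61.6 and 68.0 CPM in MUT, and CCND1 (cyclin D1) rose 1.55-fold. HMOX1, a haem-degrading stress enzyme, rose 1.53-fold. HMGA1, another gene tied to FOSL1 and named after its value was seen, had overlapping groups (log2 fold change -0.01, 95% interval -0.25 to 0.23). CCND1 was already known to rise in these data when the list was made. Leaving out WT replicate 2, the list had 2 rises, and HMOX1 lost its call.

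**Figure D4:**
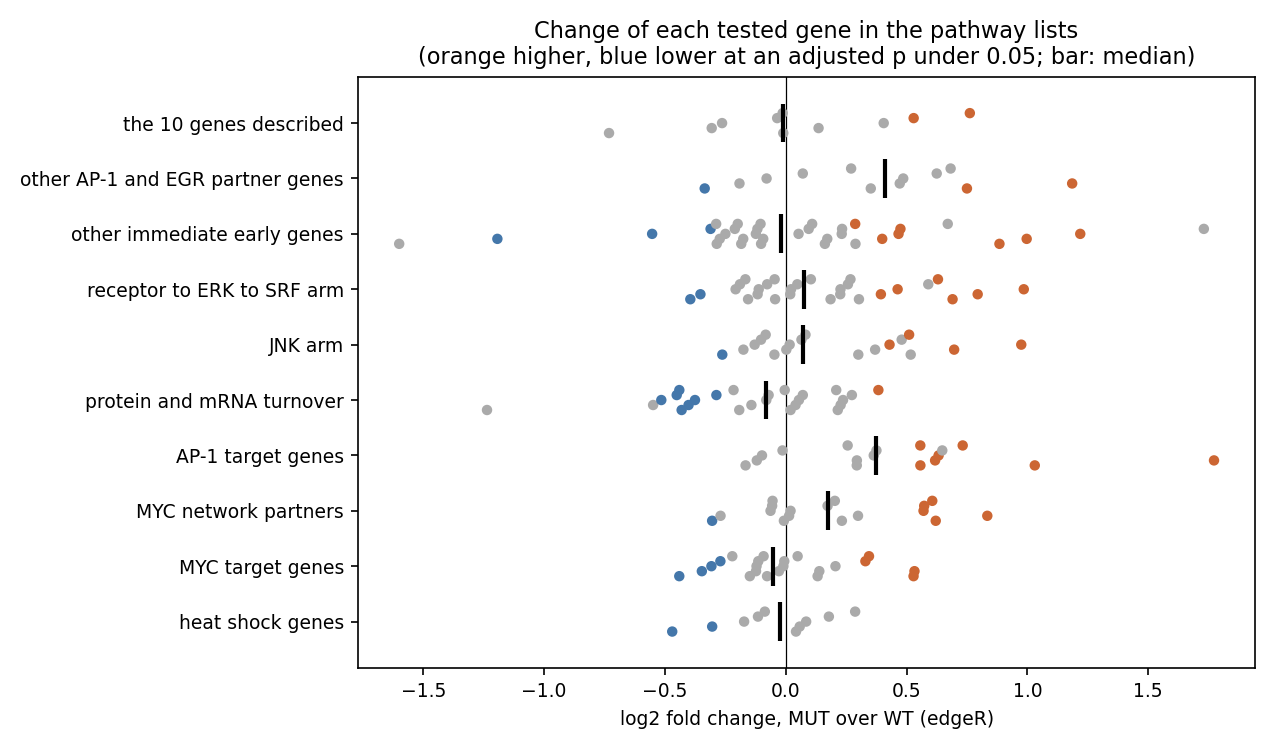
Log2 fold change (MUT over WT, horizontal axis) of every tested gene in the 10 genes described and in 9 pathway lists (rows). Each point is a gene, orange where higher and blue where lower at an adjusted p under 0.05, and the black bar is the list's median, which was 0.41 for other AP-1 and EGR partner genes, 0.38 for AP-1 target genes and -0.01 for the 10 genes.

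Among 34 other immediate early genes tested of 35 listed, 7 rose and 3 fell, with a median of -0.02. Calls made up 29.4% of these genes and 20% of the heat shock genes below, against 22.9% of all tested genes. PLK2, a kinase induced by serum and by p53, went from 133 and 125 CPM in WT to 266, 260 and 245 CPM in MUT, 2-fold higher (edgeR adjusted p 1.83e-07). The kinase gene SGK1 rose 2.33-fold and the growth-restraining gene BTG2 1.39-fold, where BTG2 lost its call without WT replicate 1. EGR3 fell 2.29-fold on low raw counts, 22 and 28 in WT and 13, 13 and 21 in MUT. HES1 was 1.47-fold and PHLDA1 1.24-fold lower. These were the 3 that fell, all named after their values were seen. Each of them lost its call without MUT replicate 1, EGR3 and PHLDA1 also without WT replicate 1 or MUT replicate 2, and HES1 and EGR3 without WT replicate 2. Rises numbered 3 without WT replicate 2, and 4 if MUT replicate 1 or 3 was left out. Falls numbered 0 without MUT replicate 1, and 1 with DESeq2 or if WT replicate 1 or MUT replicate 2 was left out. Heat shock genes, a separate set that stress induces quickly, had 0 rises and 2 falls among 10 (HSPE1 1.38-fold and HSPB1 1.23-fold lower, HSPB1 not without WT replicate 1, MUT replicate 1 or MUT replicate 3), with a median of -0.02. For that list DESeq2 and limma-voom too called 0 rises, and edgeR gave 1 (HSPA1A, chosen after its value was seen) at an unadjusted p under 0.05, and called 1 without WT replicate 2 or MUT replicate 3.

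**Figure D5:**
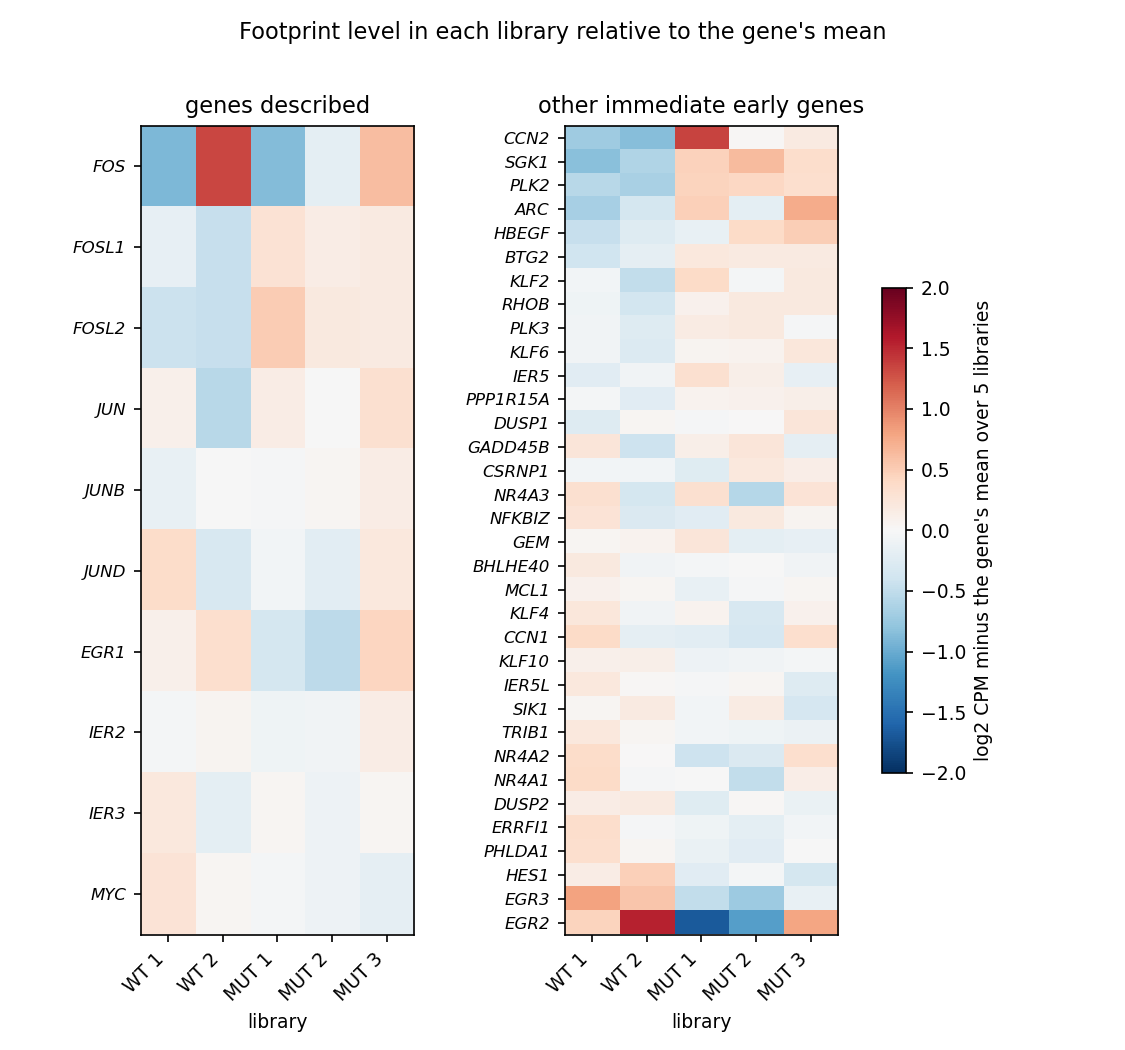
Log2 CPM of each gene (rows) in each library (columns) minus the gene's mean over the 5 libraries (colour), for the 10 genes and for the other immediate early genes tested. Of the rows shown, FOS has the strongest contrast between the WT libraries, high in WT replicate 2, and it was also highest among MUT libraries in MUT replicate 3.

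Of 25 tested genes for the turnover of these short-lived proteins and mRNAs, 7 fell and 1 rose, with a median of -0.08. That is 32% called, against 22.9% of all tested genes. HNRNPD, which binds AU-rich mRNAs such as that of FOS, went from 341 and 369 CPM in WT to 228, 261 and 257 CPM in MUT. CNOT1, the scaffold of the CCR4-NOT deadenylase, fell 1.37-fold and the mRNA-binding YBX1 1.3-fold, and YBX1 lost its call without WT replicate 1. Without WT replicate 1, 3 of these genes fell, and without WT replicate 2, 4 did. FBXW7, the ubiquitin ligase receptor for MYC and JUN, was named after its value was seen. It had a log2 fold change of 0.22 (95% interval -0.05 to 0.48) and did not pass.

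In the MYC network, 5 of 17 tested partner genes rose and 1 fell, with a median of 0.17. Calls made up 35.3% of these partners and 36.4% of the MYC targets below, against 22.9% of all tested genes. MLX and its partner MLXIP rose 1.49-fold and 1.52-fold, and the acetyltransferase gene KAT2A 1.48-fold, where KAT2A lost its call without WT replicate 2. MXD4 and MXD1, which compete with MYC for MAX, rose and MXI1, of the same kind, fell; these were named after their values were seen, and each lost its call without WT replicate 1, WT replicate 2 or MUT replicate 1, MXD1 and MXI1 also without MUT replicate 3. Partners that rose numbered 3 if WT replicate 1 or MUT replicate 1 was left out, and 2 if WT replicate 2 was. MAX itself, named after its value was seen, was at a log2 fold change of -0.01 (95% interval -0.24 to 0.23). Of 22 genes listed as MYC targets and tested, 4 rose and 4 fell, with a median of -0.05. NOLC1 and BOP1, of ribosome synthesis, rose 1.44-fold and 1.45-fold, BOP1 not without WT replicate 2, and the mitochondrial chaperone HSPD1 fell 1.36-fold. The others, named after their values were seen, were NCL and SRM on the rising side and FBL, NPM1 and PPAT on the falling side. FBL passed in all 13 alternative fits and PPAT in 4, but not if any 1 library was left out. Calls were also lost for NCL without WT replicate 1 or MUT replicate 2, for SRM without WT replicate 2, and for NPM1 without WT replicate 2, MUT replicate 1 or MUT replicate 3. Without WT replicate 2, 2 rose and 2 fell, and without MUT replicate 1 or MUT replicate 3, 2 fell.

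Over all genes 1203 were higher and 1544 lower, a split that was 1558 and 1209 with upper-quartile scaling and 1756 and 1040 with library size only. They came to 509 and 732 if WT replicate 2 was left out and 721 and 908 if MUT replicate 1 was; leaving out WT replicate 1 gave 646 higher. Library totals ran from 2095217 counts (WT replicate 1) to 3821176 (MUT replicate 3). The identity of the cells was checked on colon epithelial markers. KRT8, KRT18 and KRT19 were between 260 and 562 CPM in every library, CDX2 between 23.5 and 32.9 CPM, and VIL1, CDX1 and KRT20 at or near 0, between 0 and 3.27 CPM. Of the 6 markers tested 66.7% were called, against 22.9% of all tested genes. KRT8 and KRT19 were higher and CDH1 and EPCAM lower in MUT. All 4 lost their call without WT replicate 2, all but CDH1 without MUT replicate 1, and KRT8 and KRT19 also if WT replicate 1 or MUT replicate 2 was left out. The summed level of the 9 markers measured was 1064.6 to 1164 CPM in WT and 1138 to 1448 CPM in MUT. KRT8, KRT18 and KRT19 made up most of that sum, so it says little about CDH1 or EPCAM. Fibroblast markers summed to at most 9.22 CPM, immune markers to at most 8.21 CPM and endothelial markers to at most 4.0 CPM in any library, with COL1A1 making up most of the fibroblast sum and CD68 most of the immune sum.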

How the data were processed

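Ribosome-protected fragments of 25 to 35 nucleotides, from MNase-digested extract and the single-ribosome fraction of a sucrose gradient per the labels' protocols, were sequenced in 2 WT and 3 MUT libraries. The deposited values are raw counts per gene. The submitters' processing notes name the build hg38, STAR 2.5.2b, cutadapt 4.6, DESeq2 1.42.0 and FastQC 0.12.1. Counting tool, counted part of each gene and use of strand: not given in the sources used here. RNA-seq libraries were not analysed here, so footprint changes are not split into mRNA and translation.

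Counts were analysed with R 4.3.3, edgeR 4.0.16 (filterByExpr with minimum count 10 and minimum total 15, TMM, quasi-likelihood F test, 3 residual degrees of freedom) and limma 3.58.1. Log2 fold changes are MUT over WT, and standard errors and 95% intervals come from the F statistic. CPM uses TMM-scaled totals. In simulated counts for this comparison (11991 genes), 50 genes were changed at each of 1.25, 1.5, 2 and 3-fold and the rest left unchanged. Of genes changed 1.5-fold 52% were recovered, and of those at 2-fold 86%, while 8 of 133 calls were false. In the real data 22.9% of genes were called, a far larger share than was changed there. The adjustment depends on that share, so recovery in the real comparison may differ. No pair of libraries was alike within sampling noise, chi-square per gene being 1.91 to 8.06 over the 10 pairs. The genes and 9 lists (with markers 227 further genes, 218 in the table) were chosen with earlier results of these data known. Named are the 10 genes, up to 3 called genes of lowest p per list and the 3 nearest to the gene of lowest p, except that some genes are not reported here; every other gene was named after its values were known, whether or not its sentence says so. Family shares per coding length could not be computed, since coding lengths were not given here, and plain shares are reported. Alternatives were RLE, upper-quartile and no scaling factors, DESeq2, limma-voom, no filter, a strict filter (30 counts in 2 libraries), the replicate block and leaving out each library.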

Additional observations from a re-analysis of the deposited data

How the results depend on the processing

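The rises of FOSL1 and FOSL2 were called in every fit with no library left out, the replicate block among them. Over all genes DESeq2 called 610 higher and 953 lower, and leaving out 1 library gave 509 to 1089 higher and 732 to 1339 lower. Of the 10 genes, limma-voom called 1 lower (MYC) and the fit without a low count filter 2 (FOS and EGR1), against 0 as reported. Leaving out 1 library gave 1 to 3 higher and 0 to 2 lower. Libraries share only a replicate number: the deviations of same-numbered libraries from their group means correlated at 0.0793 and 0.148 across genes, over 2 pairs. With 2 WT libraries the WT deviations mirror each other, so these are not separate checks. WT replicate 1 with MUT replicate 3, of unlike number, gave 0.0624. These values cannot show whether a replicate number marks a batch. With the replicate block FOS (-1.14) and EGR1 (-0.67) were called, so 2 of the 10 genes were lower, and over all genes the calls were 1529 and 1909. Replicate number 3 had no WT library, so MUT replicate 3 did not enter the group difference in that fit. It was thus close to the fit without MUT replicate 3, where EGR1 was also -0.67.

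Signs turned for JUND, IER2 and IER3, which lay near 0, and for FOS, which did not, with the cause not tested. With upper-quartile scaling JUND was 0.00947, IER2 0.0327 and IER3 0.0346, and with library size only they were 0.0395, 0.0595 and 0.0653. With limma-voom JUND was 0.00343 and IER3 0.000974, and without a count filter IER3 was 0.000115. Leaving out 1 library gave -1.36 to 0.96 for FOS, -0.360 to 0.307 for JUND, -0.0966 to 0.0401 for IER2 and -0.199 to 0.186 for IER3.

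For the lists, counts that moved by over 1.5 times were as follows, again with the cause not tested. With upper-quartile scaling, 0 genes of the JNK arm, 0 MYC partners, 2 MYC targets and 1 heat shock gene fell, and 3 turnover genes and 1 heat shock gene rose. With library size only, 0 AP-1 and EGR partners, 0 of the JNK arm, 0 MYC partners, 2 MYC targets and 1 heat shock gene fell, and 10 of the ERK arm, 4 turnover genes and 1 heat shock gene rose. With DESeq2, 0 AP-1 and EGR partners, 1 other immediate early gene, 0 of the JNK arm, 0 MYC partners and 1 heat shock gene fell, and 0 of the JNK arm, 0 turnover genes and 3 AP-1 targets rose. With limma-voom 5 other immediate early genes and 1 heat shock gene fell and 0 turnover genes rose. Without a count filter 5 other immediate early genes, 0 of the JNK arm and 0 MYC partners fell, and 0 turnover genes and 1 heat shock gene rose. With the strict filter 1 heat shock gene rose. With the replicate block 5 other immediate early genes and 0 MYC partners fell, and 2 turnover genes and 1 heat shock gene rose.

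Leaving out 1 library gave these ranges of higher and lower counts: AP-1 and EGR partners 1 to 2 and 0 to 1, other immediate early genes 3 to 8 and 0 to 4, ERK arm 1 to 6 and 1 to 2, JNK arm 0 to 3 and 0 to 0. For turnover genes they were 0 to 0 and 3 to 7, for AP-1 targets 2 to 7 higher, for MYC partners 2 to 5 and 0 to 1, for MYC targets 2 to 4 and 2 to 3, and for heat shock genes 0 to 1 and 1 to 2. The difference in the FOSL2 share of its family, 4.94 percentage points, ranged from 3.63 to 6.01. In simulated data with these numbers of libraries and these depths 52% of genes changed 1.5-fold were recovered, and depth was not varied. Far fewer genes were changed in the simulation than were called here, so recovery in the real comparison may differ.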
